A study of Caenorhabditis elegans with 58 samples.

Results

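The microRNA (miRNA) content of wild-type first-stage larvae (L1) of the nematode Caenorhabditis elegans was set against that of wild-type embryos, over every mature miRNA arm that was counted. The members were the 12 libraries whose titles name wild type with the stage L1 or embryo, 6 per stage, out of 58 libraries in all. Every animal was a hermaphrodite of strain N2, and RNA came from whole animals. By the labels' protocol, gravid adults grown in liquid culture were bleached, and the embryos released were either frozen for the embryo libraries or rocked at 20 °C overnight without food for the L1 libraries. The L1 group is therefore both later and starved, and stage and food cannot be told apart. The embryos were a mixture of ages. The other libraries of the series, made from animals with an edited mir-35 gene or from staged animals, were used only where named.

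A miRNA hairpin is cut into a duplex of 2 strands, the 5p arm and the 3p arm, each about the length of a mature miRNA. One strand, the guide, is kept by an Argonaute protein and pairs with target messengers through its seed, and the other, the passenger, is usually degraded. The names in the table mark 132 of 276 arms with an asterisk, the customary sign of the passenger. miRNAs that share a seed form a family: in this worm the mir-35 family (mir-35 to mir-42) is required in embryos and cleared by L1, while lin-4 and the let-7 family set the timing of larval stages.

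Every library was deep for a table of 276 arms. Total miRNA counts were 5154047 to 16224826 in L1 libraries and 4650923 to 16472743 in embryo libraries. Levels are given as CPM, the usual unit of counts relative to the size of the library, after TMM scaling, which sets the libraries to a common level over most arms. CPM carry no correction for length, since all arms are about as long. The TMM factors moved with stage, at 0.875 to 1.33 in L1 and 0.651 to 1.01 in embryos, and counts of calls under other scalings stand beside the main ones below. L1 replicate 6 and embryo replicate 5 had the lowest TMM factors of their stage and embryo replicate 3 the lowest mir-35_3p among embryos, and these 3 libraries are named below as standing apart. Without them 62 arms rose and 70 fell, against 54 and 64 with them, and calls of named arms that changed are given with both values. Reads of edited mir-35 sequences, which these animals do not carry, had 945 to 4730 counts in L1 libraries and 476 to 16515 in embryo libraries, with the highest in embryo replicate 3. The markers went with the labels: all 8 guides of the mir-35 family, which mark embryos, were lower in L1, and let-7, which marks late larvae and adults, had a median of 1.59 CPM in L1 and 1.55 CPM in embryos, at most 5.63 CPM in any library. The family's guides were uneven among L1 libraries. They held 3.35% of counts in L1 replicate 1 and 1.90% in L1 replicate 6, where the L1 median was 0.915%. In embryos they held 22.5 to 43.2%.

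L1 and embryos were both dominated by a handful of arms, but by largely different ones. Of the 10 arms with the largest mean share of miRNA counts in each stage, 5 were common to both stages and 15 stood in at least 1 of the lists. mir-1_3p, the muscle miRNA, led in L1 with 14.2 ± 1.94% in L1 and 9.55 ± 2.45% in embryos (mean ± SD, n = 6 each), and stood at rank 3 in embryos. Next in L1 came mir-71_5p, a miRNA known for its part in ageing and in the survival of starved larvae, with 10.6 ± 4.23% in L1 and 0.435 ± 0.331% in embryos. Its libraries did not overlap between stages, with 7.29% the lowest of L1 and 1.08% the highest of embryos, and it stood at rank 2 in L1 and rank 31 in embryos. mir-58a_3p, of a family related to the fly miRNA bantam, held 6.64 ± 2.11% in L1 and 4.81 ± 2.7% in embryos. The mir-51 family, broadly expressed and needed for embryonic development, gave mir-55_3p with 6.19 ± 1.901% in L1 and 4.14 ± 1.66% in embryos and mir-56_3p with 5.24 ± 1.76% in L1 and 4.21 ± 1.43% in embryos. mir-228_5p, known from glia, held 5.77 ± 1.71% in L1 and 2.06 ± 0.705% in embryos. The ranges of mir-228_5p did not overlap, and those of mir-58a_3p, mir-55_3p and mir-56_3p did.

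The L1 list went on with mir-44_3p, which held 4.87 ± 1.104% in L1 and 3.101 ± 1.07% in embryos and mir-45_3p held 4.92 ± 1.23% in L1 and 3.18 ± 1.09% in embryos. Both are uncertain as single arms, because their counts stood in a ratio of 0.949 to 1.06 in every library and their reads are shared. mir-72_5p held 4.37 ± 1.295% in L1 and 2.78 ± 0.473% in embryos. mir-57_5p, known from posterior cells, held 4.34 ± 0.297% in L1 and 2.34 ± 0.885% in embryos. Of these 4 arms, mir-72_5p alone had libraries that did not overlap, and only just, with 3.48% the lowest of L1 and 3.46% the highest of embryos. Its CPM after TMM scaling overlapped, and its log2 of L1 over embryo was 0.33 (edgeR adjusted p = 0.238). With scaling to library totals or spike-in RNAs it passed as higher (log2 of 0.65 and 1.34, edgeR adjusted p = 0.0268 and 0.0384). At the head of the embryo list stood mir-35 family guides. mir-35_3p held 0.47 ± 0.41% in L1 and 12.4 ± 5.04% in embryos, mir-37_3p 0.33 ± 0.245% in L1 and 10.7 ± 2.003% in embryos, and mir-39_3p 0.38 ± 0.249% in L1 and 7.83 ± 1.33% in embryos. The other embryo arms were mir-51_5p, with 2.09 ± 0.272% in L1 and 5.73 ± 1.55% in embryos, and mir-82_3p, with 2.76 ± 0.65% in L1 and 3.79 ± 1.16% in embryos. For each of the family guides and for mir-51_5p, every L1 library was below every embryo library, whereas mir-82_3p overlapped.

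**Figure D1:**
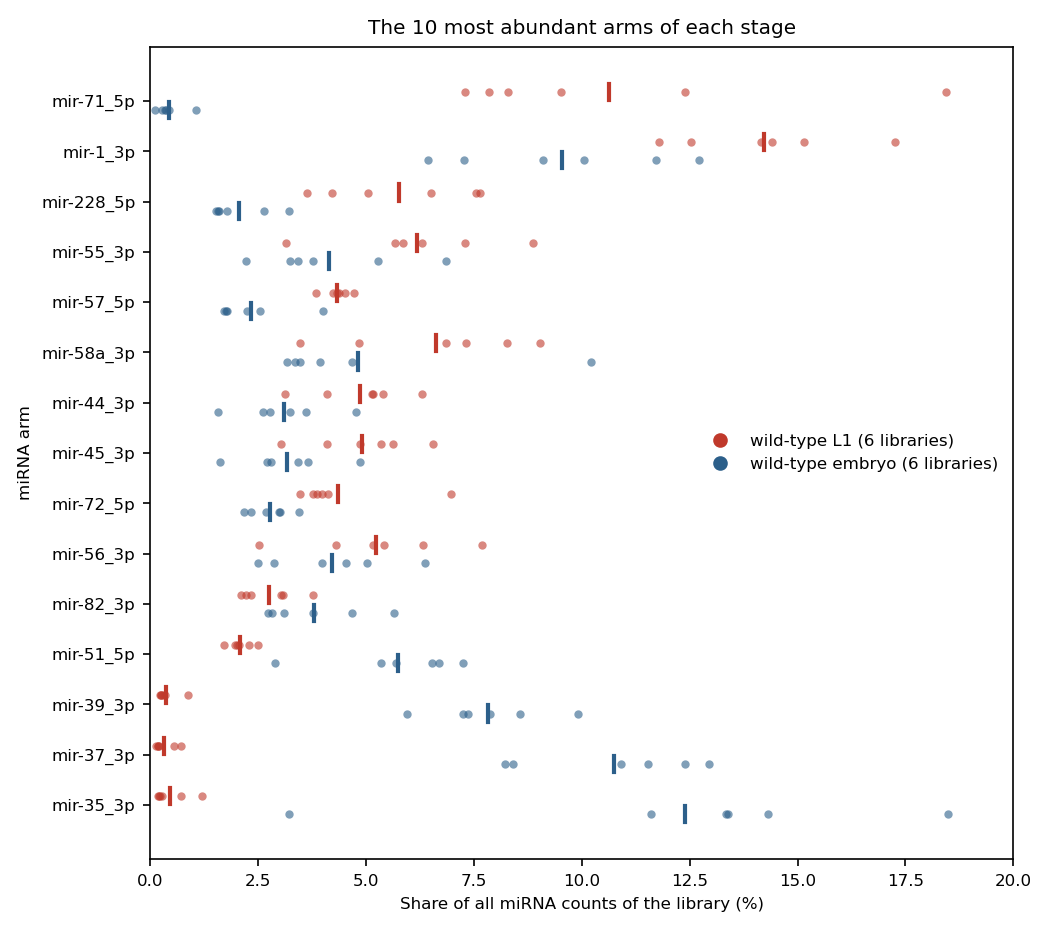
Share of all miRNA counts (%, x axis) held by each of the 15 arms that were among the 10 most abundant in L1 or in embryos, with 1 point per library (red, 6 wild-type L1; blue, 6 wild-type embryo) and a bar at the mean. mir-71_5p at the top held a mean of 10.6% in L1 and 0.435% in embryos, and mir-35_3p at the bottom 0.47% in L1 and 12.4% in embryos.

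The gains and losses of share balance by construction. In L1, 147 arms held more than in embryos, by a sum of 41.15 percentage points. The 16 arms of the mir-35 family had a change of -34.23 points and 105 arms outside it one of -6.916 points. The 5 arms with the largest gains held 55% of the sum gained, and the 10 largest held 75.6%. mir-71_5p alone gained 10.19 points. Part of every gain follows from the family's loss, so shares were also taken over the arms outside the family. There mir-1_3p held 14.4 ± 2.07% in L1 and 14.9 ± 3.86% in embryos. mir-71_5p held 10.8 ± 4.34% in L1 and 0.714 ± 0.604% in embryos, and mir-51_5p 2.12 ± 0.282% in L1 and 8.84 ± 1.95% in embryos. Outside the family the stages differed in mir-1_3p by less than the spread between libraries, and in mir-71_5p and mir-51_5p by more.

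How concentrated the miRNA pool was showed no difference beyond the spread between replicates. The 10 most abundant arms of a library held 68.3 ± 1.98% of its counts in L1 and 68.0 ± 1.85% in embryos (2-sided exact permutation test, p = 0.797, adjusted p = 0.797 over 4 measures). The effective number of arms, which is the number of equally abundant arms that would give the same Shannon entropy, was 24.4 ± 1.97 in L1 and 23.9 ± 1.62 in embryos (exact permutation p = 0.602, adjusted p = 0.797). With the mir-35 family left out it was 23.2 ± 1.91 in L1 and 22.7 ± 2.29 in embryos (exact permutation p = 0.667, adjusted p = 0.797). The directions of these small differences depended on single libraries: L1 minus embryo was -0.30 points for the share of the top 10 without L1 replicate 6 and -0.06 without embryo replicate 2, and -0.20 for the effective number outside the family without embryo replicate 5. Between 5 and 7 arms made up 50% of counts in both stages. The order of the arms did differ: across the 213 arms tested, Spearman's rho was 0.83 to 0.931 between an L1 and an embryo library, 0.959 to 0.992 between L1 libraries and 0.949 to 0.994 between embryo libraries. These are correlations across arms, which are not independent replicates and share library depth.

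Arm by arm, 118 of 213 arms tested, or 55.4%, passed an adjusted p of 0.05 between the stages (edgeR quasi-likelihood test, Benjamini-Hochberg adjustment over all 213). Of them 54 rose in L1 (25.4% of those tested) and 64 fell (30%). Outside the mir-35 family, 103 of 197 arms passed (52.3%), of which 54 rose (27.4%) and 49 fell (24.9%). The CPM of the 2 stages did not overlap in 72 of 213 arms (33.8%), and in 59 of 197 outside the family (29.9%). The split depended on the scaling: with library totals alone 71 arms rose and 49 fell, and with scaling to the summed spike-in RNAs 74 rose and 27 fell, with the median of all arms moved up by 0.33 and 1.02 on the log2 scale. The other 63 of 276 arms were too low to test, with a mean of at most 12.8 counts, and 9 of them had 0 counts in all 12 libraries. None of the 276 had 10 or more counts in every library of one stage and 0 in every library of the other. In whole animals, fewer cells of a type and less RNA per cell cannot be told apart.

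**Figure D2:**
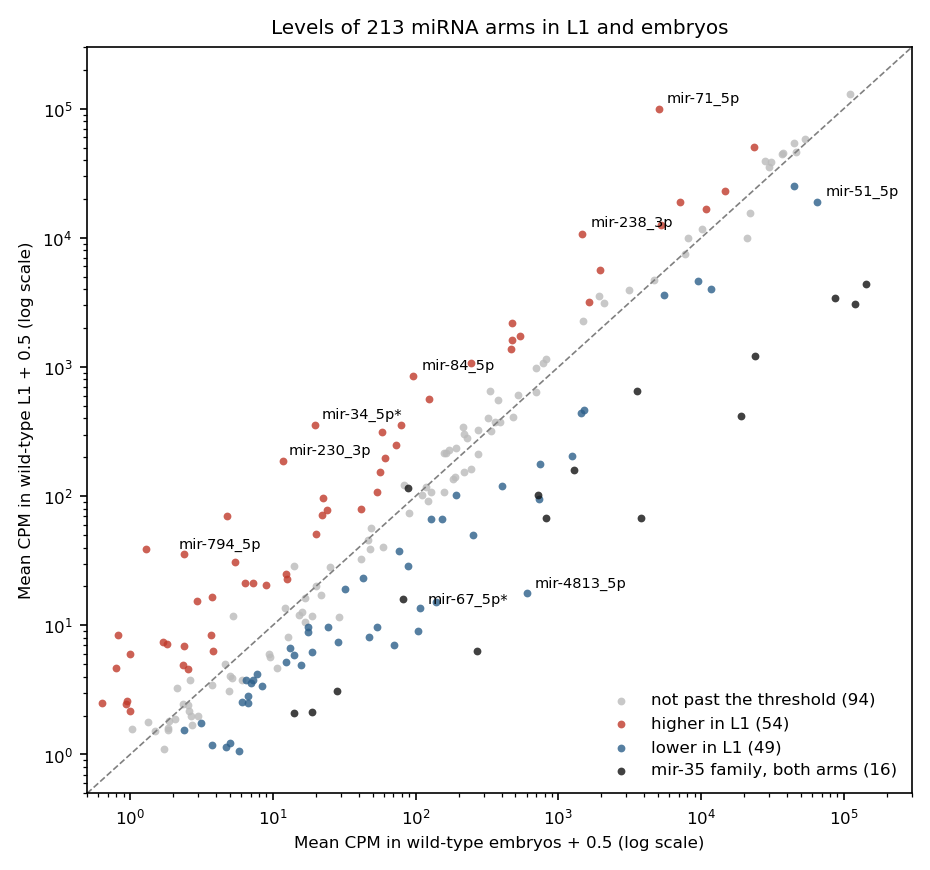
Mean level of each of the 213 arms tested in 6 wild-type L1 libraries (y axis) against 6 wild-type embryo libraries (x axis), in CPM plus 0.5 on log scales, with a dashed line of equal levels. Outside the mir-35 family 54 arms (red) were higher in L1, 49 (blue) were lower and 94 (grey) did not pass the threshold, while 15 of the 16 family arms (black) lie below the line.

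Among the better measured arms (a log2 CPM of 5 or more on average), mir-71_5p had the largest rise. It had 59223, 79654 and 210671 CPM in L1 libraries (lowest, median and highest) and 1239, 3789 and 11847 CPM in embryo libraries. The lowest L1 library was above the highest embryo library, and the log2 of L1 over embryo was 4.31 ± 0.52 (± standard error, edgeR adjusted p = 1.87e-06). Its asterisk arm, mir-71_3p*, rose as well, with 381, 541 and 839.9 CPM in L1, against 63.9, 135 and 191 CPM in embryos, with a log2 of 2.19 ± 0.32. mir-34_5p*, the abundant arm of a miRNA of the DNA damage and stress response, had 231, 380.1 and 423 CPM in L1, against 11.4, 17.1 and 37.5 CPM in embryos. These ranges were also apart, and its log2 was 4.20 ± 0.34 (edgeR adjusted p = 1.06e-08).

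Both belong to the miRNAs tied to ageing and stress. Of 7 such arms tested, among them both arms of mir-34, 6 rose, none fell and 1 did not pass, where 25.4% of all arms rose and 30% fell. Their median log2 was 1.83, against -0.07 for all arms, and the list was chosen with earlier results of these data known. mir-238_3p, which is required for a normal lifespan, had 8928, 10481 and 13883 CPM in L1, against 1040.0, 1438 and 2112 CPM in embryos. Its stages were well apart, with a log2 of 2.87 ± 0.27, and its share of the pool was 1.198 ± 0.118% in L1 and 0.13 ± 0.0295% in embryos. mir-228_5p had 36309, 51014 and 62920.3 CPM in L1, against 15636, 18186 and 40653 CPM in embryos, with a log2 of 1.10 ± 0.29 (edgeR adjusted p = 0.0028) and stages that overlapped. mir-239a_5p rose by a log2 of 1.83 ± 0.41 and mir-34_3p by 1.77 ± 0.62. The rise of mir-34_3p did not pass with no filter (log2 of 1.61, edgeR adjusted p = 0.0618) or without L1 replicate 4, embryo replicate 2 or embryo replicate 3 (log2 of 1.30 to 1.71, edgeR adjusted p = 0.0529 to 0.0740). mir-239a_3p*, which is in the table the more abundant arm of its hairpin, had 60.1, 101 and 118 CPM in L1, against 10.4, 16.2 and 45.5 CPM in embryos, without overlap. The exception was mir-246_3p, with 5.25, 10.05 and 17.3 CPM in L1, against 8.07, 13.3 and 30.4 CPM in embryos, with a log2 of -0.70 ± 0.38 (edgeR adjusted p = 0.122), which passed as lower in a fit with the replicate number as a block (adjusted p = 0.0387) and without L1 replicate 6 (log2 of -0.91, edgeR adjusted p = 0.0477). It also passed as lower with a minimum of 50 counts (log2 of -0.89, edgeR adjusted p = 0.0480).

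Of the timing miRNAs, 5 of 7 tested rose, 1 fell and 1 did not pass, where 25.4% of all arms rose and 30% fell, with a median log2 of 2.60 against -0.07 for all arms. mir-84_5p, a let-7 relative that acts in larval seam and vulval cells, had 629.6, 906 and 964 CPM in L1, against 61.4, 95.1 and 137 CPM in embryos. No library overlapped, and the log2 was 3.15 ± 0.31 (edgeR adjusted p = 8.47e-08). mir-794_5p and mir-795_5p, further relatives of let-7, were far lower in level. mir-794_5p had 27.1, 36.3 and 44.1 CPM in L1, against 0.593, 1.999 and 2.96 CPM in embryos, a log2 of 4.22 ± 0.37, and mir-795_5p a log2 of 1.30 ± 0.33. The lin-4 relative mir-237 had 39.5, 73.8 and 103 CPM in L1, against 3.38, 4.04 and 6.14 CPM in embryos, again without overlap, and a log2 of 4.02 ± 0.34. lin-4_5p itself, which represses lin-14 as larvae are fed and grow, had 3.33, 5.81 and 14.5 CPM in L1, against 0.677, 0.95 and 1.97 CPM in embryos. It rose by 2.60 ± 0.42 (edgeR adjusted p = 2.16e-05) but was at most 14.5 CPM in any L1 library. mir-48_5p, which shares the let-7 seed and acts with mir-84 and mir-241, went the other way, with 22.4, 27.8 and 33.9 CPM in L1, against 64.02, 75.2 and 147 CPM in embryos. Its stages did not overlap, and its log2 was -1.64 ± 0.28 (edgeR adjusted p = 4.25e-05), a fall that did not pass with spike-in scaling (log2 of -0.44). let-7_5p did not pass, with 0.98, 1.59 and 2.22 CPM in L1, against 0.709, 1.55 and 5.63 CPM in embryos. mir-241_5p was too low to test.

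The other named rises had no overlap between stages. mir-230_3p had 98.0, 137 and 417 CPM in L1, against 4.89, 7.23 and 24.2 CPM in embryos, with a log2 of 4.05 ± 0.48. mir-83_3p, the worm relative of miR-29, had 177, 335 and 449 CPM in L1, against 40.9, 61.8 and 71.3 CPM in embryos, with a log2 of 2.44 ± 0.30. mir-248_3p had 676, 1073 and 1547 CPM in L1, against 146, 239 and 389.9 CPM in embryos, with a log2 of 2.16 ± 0.32. In these 3, each L1 library was above each embryo library. mir-1821_3p had 241, 316 and 626 CPM in L1, against 37.2, 69.5 and 142 CPM in embryos, with a log2 of 2.16 ± 0.34. From the hairpin of mir-63 both arms rose, mir-63_3p with 1571, 2221 and 2840.1 CPM in L1, against 312, 494 and 602 CPM in embryos, and mir-63_5p* with 169, 226 and 321 CPM in L1, against 54.1, 69.2 and 96.2 CPM in embryos. Their log2 values were 2.22 ± 0.28 and 1.77 ± 0.27. All 12 named rises, which were chosen for having no overlap, passed under each of 5 scalings.

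Falls outside the mir-35 family were in part of abundant guides and in part of asterisk arms. mir-51_5p had the largest level among them, with 15086, 18258 and 23351 CPM in L1 libraries (lowest, median and highest) and 31873, 66577 and 100208 CPM in embryo libraries. All L1 libraries lay below all embryo libraries, and its log2 was -1.79 ± 0.28 (edgeR adjusted p = 1.68e-05). mir-65_5p had 3430.3, 3615 and 5854 CPM in L1, against 8881, 11465 and 14392 CPM in embryos, a log2 of -1.54 ± 0.25 (edgeR adjusted p = 2.16e-05) and no overlap. With spike-in scaling neither passed, at log2 values of -0.89 and -0.69. The hairpin of mir-4813 lost its 5p arm above all. mir-4813_5p had 6.19, 10.9 and 56.3 CPM in L1, against 194, 274 and 2059 CPM in embryos, while mir-4813_3p had 73.4, 107 and 131 CPM in L1, against 141, 168 and 311 CPM in embryos. Both were apart between stages, and their log2 values were -5.13 ± 0.82 (edgeR adjusted p = 6.72e-05) and -0.92 ± 0.28 (edgeR adjusted p = 0.00787). The fall of mir-4813_3p turned to 0.17 with spike-in scaling, and without the 3 libraries that stood apart it was -0.52 (edgeR adjusted p = 0.0739). It did not pass with library totals either (log2 of -0.53, edgeR adjusted p = 0.125).

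Among asterisk arms, mir-67_5p* had 7.82, 11.6 and 19.1 CPM in L1, against 32.2, 109 and 163 CPM in embryos, with a log2 of -3.02 ± 0.37. mir-74_5p* had 32.9, 86.8 and 173 CPM in L1, against 189, 389.9 and 2534 CPM in embryos, with a log2 of -2.94 ± 0.64. mir-86_3p* had 104, 201 and 288 CPM in L1, against 691, 1007 and 2396 CPM in embryos, with a log2 of -2.61 ± 0.35. Each of the 3 was lower in every L1 library than in any embryo library, and each passed under every scaling, as did mir-4813_5p. mir-73_5p* had 30.3, 45.7 and 74.3 CPM in L1, against 158, 260.4 and 307 CPM in embryos, with a log2 of -2.36 ± 0.30, and mir-49_5p* had 86.4, 126 and 139.7 CPM in L1, against 286, 339 and 763 CPM in embryos, with a log2 of -1.75 ± 0.30. Both were without overlap, but did not pass with spike-in scaling. The 10 named falls were chosen for having no overlap.

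**Figure D3:**
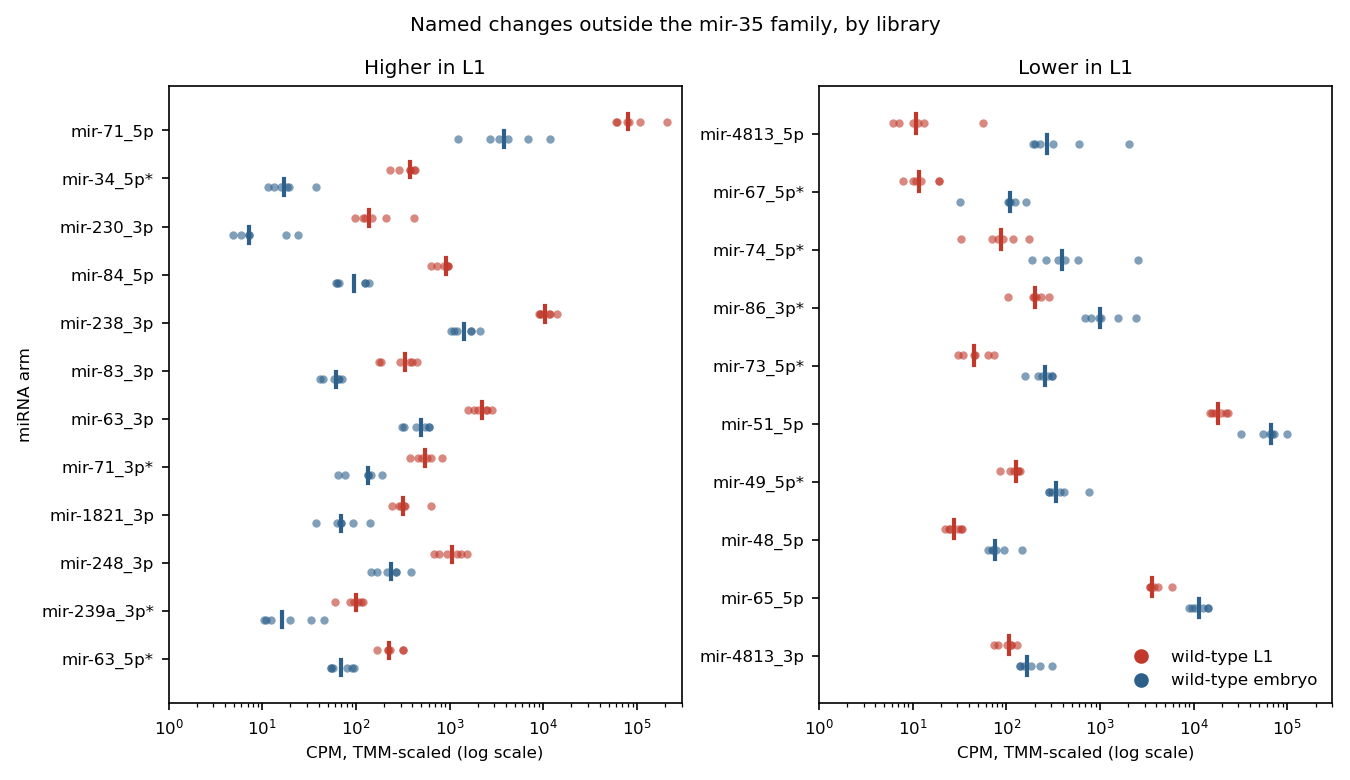
Level of each named arm outside the mir-35 family in each library, in CPM on a log scale (x axis), with 1 point per library (red, 6 wild-type L1; blue, 6 wild-type embryo) and a bar at the median. The left panel holds the 12 named rises and the right panel the 10 named falls, and in none do the points of the stages overlap.

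In the families that share a seed, members that passed stood beside members that did not. Over all arms tested, 25.4% rose and 30% fell, and whether a family differed from that was not tested. In the mir-51 family, mir-51_5p fell, and the other 5 members did not pass, with log2 values of -0.002 for mir-56_3p to 0.46 for mir-53_5p. mir-52_5p, the most abundant of the rest after mir-55_3p and mir-56_3p, had 25886, 32278 and 50542 CPM in L1, against 6695, 35228 and 35901 CPM in embryos. In the mir-58 family, 1 of 5 members tested rose, 2 fell and 2 did not pass, and neither fall passed with spike-in scaling. mir-80_3p had 5673, 11670.1 and 23948 CPM in L1, against 2304, 5533 and 7493 CPM in embryos, and rose by 1.27 ± 0.34. mir-82_3p had 15826, 23238 and 43231 CPM in L1, against 27598, 37500.2 and 86685 CPM in embryos, with a log2 of -0.81 ± 0.32 (edgeR adjusted p = 0.0371) that was 0.08 with spike-in scaling. It did not pass with RLE factors (-0.71, edgeR adjusted p = 0.0741), library totals (-0.46, edgeR adjusted p = 0.135) or DESeq2 (-0.71, adjusted p = 0.0673) either. It also did not pass without any 1 of L1 replicates 1 to 5 or embryo replicates 1, 3, 5 and 6 (log2 of -0.81 to -0.50, edgeR adjusted p = 0.0505 to 0.173). The other fall, of mir-2209a_3p, had a log2 of -1.11 ± 0.35 and did not pass without L1 replicate 1 or 3 (-0.94 in both) or with spike-in scaling (-0.08). mir-58a_3p, the most abundant, had a log2 of 0.11 ± 0.31, which was 0.72 without the 3 libraries that stood apart (edgeR adjusted p = 0.00658).

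Of the mir-64 family, mir-63_3p rose, mir-64_5p and mir-65_5p fell and 2 members did not pass, where 25.4% of all arms rose and 30% fell. mir-64_5p had 3233, 4628 and 7089 CPM in L1, against 6251, 9252 and 12725 CPM in embryos, with a log2 of -1.02 ± 0.27, which did not pass with spike-in scaling (-0.15). In the mir-44 family, 1 of 4 members fell and 3 did not pass. That member was mir-247_3p, at a median of 2.17 CPM in L1 and 6.302 CPM in embryos, with a log2 of -1.38 ± 0.35, while mir-44_3p, mir-45_3p and mir-61_3p had 0.29, 0.27 and 0.20 and all passed as higher with spike-in scaling. With that scaling the fall of mir-247_3p did not pass (log2 of -0.29, edgeR adjusted p = 0.726). mir-44_3p also passed as higher with library totals (log2 of 0.65, edgeR adjusted p = 0.0459). In the mir-2 family, mir-43_3p fell, with 13.9, 22.1 and 33.4 CPM in L1, against 20.03, 41.1 and 64.3 CPM in embryos, a log2 of -0.87 ± 0.31 and 0.19 with spike-in scaling. That fall did not pass without L1 replicate 1 or 5 or embryo replicate 1 or 4 (log2 of -0.79 to -0.70, edgeR adjusted p = 0.0509 to 0.0821). Nor did it pass with library totals (log2 of -0.56, edgeR adjusted p = 0.184). mir-2_3p did not pass, with 359, 619 and 888 CPM in L1, against 365, 518 and 754 CPM in embryos. Of the mirtrons, which are cut from introns by splicing, mir-62_3p was the member with a line in the table, and it did not pass, with a log2 of 0.06.

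Of 7 miRNAs taken as markers of tissues or tied to EBAX-1, a ubiquitin ligase adaptor, 3 rose, 1 fell and 3 did not pass, where 25.4% of all arms rose and 30% fell, with a median log2 of 0.49 against -0.07 for all arms. With the replicate number as a block 4 rose, and with library totals or spike-in scaling 5 did. The muscle miRNA mir-1_3p had 94552, 128339 and 197186 CPM in L1, against 65295, 100254 and 179861 CPM in embryos, overlapping, with a log2 of 0.23 ± 0.29 (edgeR adjusted p = 0.521). It passed as higher with library totals (log2 of 0.57, edgeR adjusted p = 0.0383) and with spike-in scaling (log2 of 1.22, edgeR adjusted p = 0.0302). mir-124_3p, of neurons, had 12.4, 22.1 and 31.8 CPM in L1, against 7.02, 10.7 and 19.5 CPM in embryos, and rose by 0.89 ± 0.32 (edgeR adjusted p = 0.0223), a rise that did not pass without embryo replicate 2 (log2 of 0.72, edgeR adjusted p = 0.0865). Nor did it pass with no filter, with a minimum of 50 counts or in all 42 libraries of mir-35 strains (log2 of 0.76, 0.68 and 0.91, edgeR adjusted p = 0.0618, 0.0664 and 0.0581). lsy-6_3p, which sets the left and right taste neurons apart, had 72.3, 100.2 and 134 CPM in L1, against 62.3, 104 and 173 CPM in embryos, with a log2 of -0.14 ± 0.28. mir-57_5p had 28973, 38338 and 51507 CPM in L1, against 17860.1, 21987 and 61710.4 CPM in embryos, and its log2 of 0.49 ± 0.31 did not pass (edgeR adjusted p = 0.187), but did with the replicate number as a block (adjusted p = 0.0499) and without embryo replicate 5 (log2 of 0.89, edgeR adjusted p = 0.00174). Without the 3 libraries that stood apart it passed too (log2 of 0.87, edgeR adjusted p = 0.00118), as it did with library totals and spike-in scaling (log2 of 0.89 and 1.54). mir-243_3p, which feeds into an endogenous small-RNA pathway, had 103, 174 and 315 CPM in L1, against 26.3, 57.5 and 97.6 CPM in embryos, and rose by 1.73 ± 0.36.

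In the mir-35 family all 8 guides fell, by log2 values of -5.82 for mir-38_3p to -2.45 for mir-42_3p, with a median of -5.16. mir-35_3p had 1487, 2172 and 10287 CPM in L1, against 31793, 140618 and 204854 CPM in embryos. Of the 8 asterisk arms of the family 7 fell, with a median of -3.10 over the 8, and mir-42_5p* did not pass, with 62.1, 91.3 and 265 CPM in L1, against 26.2, 102 and 136 CPM in embryos. Every guide, and each of those 7 asterisk arms, also fell with spike-in scaling. mir-42_5p* passed as higher with that scaling, at a log2 of 1.27.

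Neighbouring miRNAs on a strand are often cut from a single transcript. Genes within 10 kb of each other, on either strand, in the reference annotation gave 19 groups with at least 2 genes tested, each judged by its more abundant arm. In 3 groups every member rose and in 1, mir-35 to mir-41, every member fell, where 25.4% of all arms rose and 30% fell. In 3 groups no member passed, and in 0 groups did one member rise and another fall. mir-71 and mir-2 are neighbours, and mir-71_5p had a log2 of 4.31 ± 0.52 where mir-2_3p had 0.20 ± 0.28. mir-73, mir-74 and mir-75 gave -0.50 ± 0.27, 0.33 ± 0.33 and 2.61 ± 0.40, of which that of mir-75_3p passed (edgeR adjusted p = 1.68e-05). Without the 3 libraries that stood apart, mir-73_3p passed as lower as well (log2 of -0.50, edgeR adjusted p = 0.0430). It did so too with a minimum of 50 counts (log2 of -0.68, edgeR adjusted p = 0.0329). mir-51_5p had -1.79 ± 0.28 and its neighbour mir-53_5p 0.46 ± 0.35. These 3 groups held members that passed beside members that did not, and a difference between neighbours was not tested. mir-80, mir-90 and mir-238 all rose, by 1.27 ± 0.34, 0.64 ± 0.26 and 2.87 ± 0.27, and so did mir-792_3p, by 1.64 ± 0.33, beside mir-1821_3p. The rise of mir-90_3p was close to the threshold (edgeR adjusted p = 0.0455) and did not pass without any 1 of L1 replicates 2 to 4 or embryo replicates 1, 2, 4 and 6 (log2 of 0.62 to 0.72, edgeR adjusted p = 0.0516 to 0.0912). It did not pass either with TMM factors from arms outside the family, no filter or a minimum of 50 counts (log2 of 0.54, 0.52 and 0.43).

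**Figure D4:**
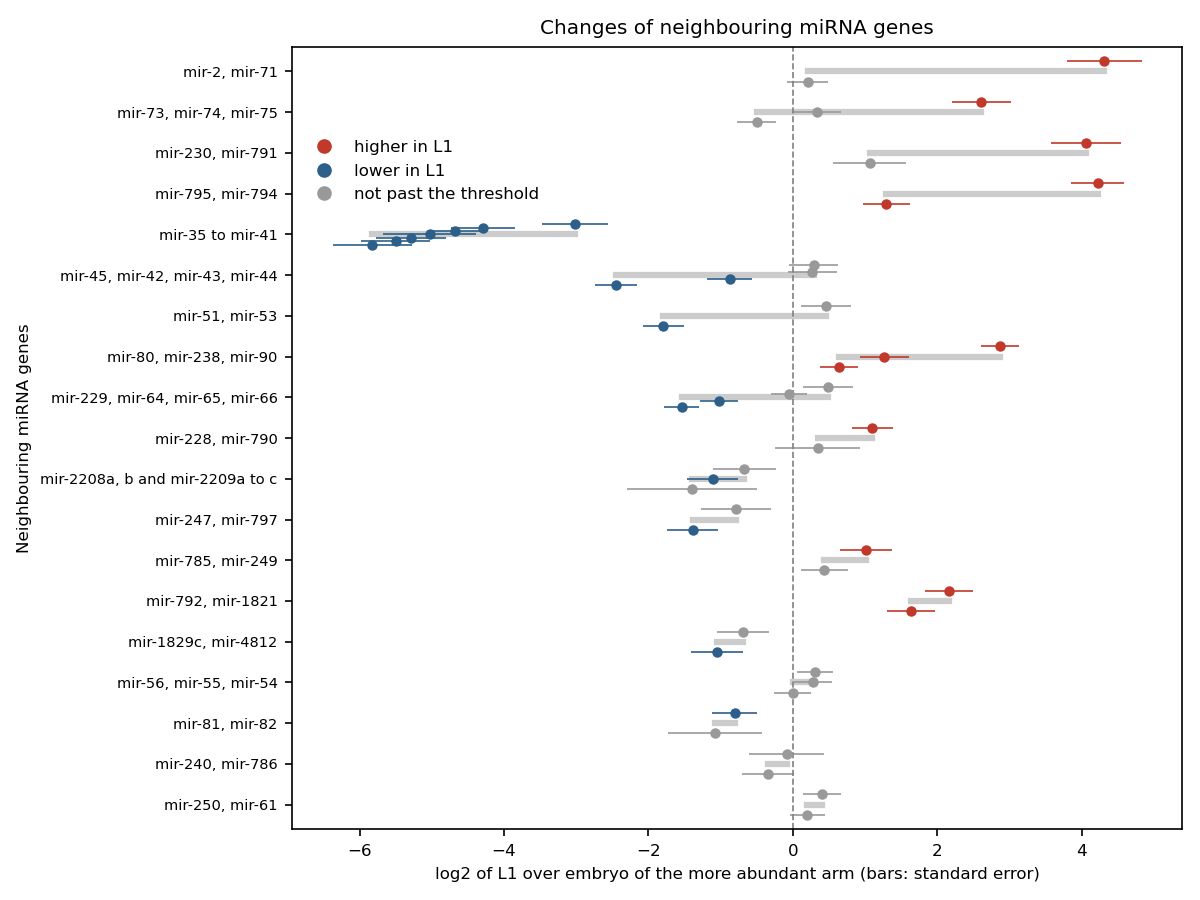
log2 of L1 over embryo (x axis) for the more abundant arm of each tested gene in 19 groups of neighbouring miRNA genes (rows), with 1 point per gene, bars for the standard error and a grey bar for the range of the group. Red points rose in L1, blue points fell and grey points did not pass, and the top row shows mir-71 at 4.31 and mir-2 at 0.20.

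The balance of the 2 arms of a hairpin also differed between stages. It was tested as the change of 3p over 5p counts within each library, which no scaling of libraries affects. Of 82 hairpins tested, 43 passed an adjusted p of 0.05 (edgeR quasi-likelihood test on the interaction of arm and stage, 52.4%), 24 towards the 3p arm in L1 (29.3%) and 19 towards the 5p arm (23.2%). Outside the mir-35 family, 29 of 74 hairpins moved towards the arm without an asterisk, 5 towards the asterisk arm and 1, mir-4813, has no asterisk. Among them mir-44 moved towards 3p (2.16 ± 0.35) and mir-45 towards its asterisk arm (-1.44 ± 0.34). Both calls are uncertain, because the 2 hairpins share their 3p reads. All 8 family hairpins moved towards the asterisk arm, with a median log2 change of -2.36 in 3p over 5p, against 0.65 for the other 74. The difference between the family and the other hairpins was not tested.

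mir-4813 had the largest change towards 3p. Its 3p arm held 56.6, 90.4 and 94.8% in L1, against 13.1, 35.98 and 49.9% in embryos (lowest, median and highest of the reads of both arms). The stages did not overlap, the more abundant arm was 3p in L1 and 5p in embryos, and the log2 change of 3p over 5p was 4.14 ± 0.62 (edgeR adjusted p = 1.92e-05). mir-67 changed its more abundant arm too: the 3p arm held 50.0, 74.1 and 81.8% in L1, against 18.6, 28.9 and 44.7% in embryos, with a log2 change of 2.62 ± 0.46 (edgeR adjusted p = 6.17e-05). mir-74 was the third such hairpin, with 63.6, 82.97 and 93.2% in L1, against 4.04, 48.2 and 70.6% in embryos, with a log2 change of 2.68 ± 0.77 (edgeR adjusted p = 0.007). Its stages overlapped, while those of mir-67 did not.

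In other hairpins the minor arm became rarer. Of mir-236, a relative of the miR-200 family, the asterisk arm held 1.95, 2.99 and 3.901% in L1, against 5.77, 20.6 and 24.9% in embryos, and the log2 change was 2.81 ± 0.42. Of mir-86 the asterisk arm, here 3p, held 2.804, 6.43 and 9.53% in L1, against 25.3, 37.7 and 79.9% in embryos, with a log2 change of -3.50 ± 0.54 (edgeR adjusted p = 2.07e-05). Neither overlapped between stages. mir-86 also shows the pattern by level: its 5p arm rose by 0.96 ± 0.29 where its asterisk arm fell. mir-252 had 0.0906, 0.184 and 0.418% in L1, against 1.03, 2.28 and 4.83% in embryos on the asterisk arm and a log2 change of -3.56 ± 0.46. Its asterisk arm was low, at 0.222 to 1.19 CPM in L1 and 3.07 to 6.83 CPM in embryos. mir-52 had 0.0176, 0.0256 and 0.0338% in L1, against 0.0731, 0.308 and 1.26% in embryos and -3.74 ± 0.53, with mir-52_3p* at 5.099, 8.76 and 11.5 CPM in L1, against 26.3, 89.4 and 213 CPM in embryos. Each of these had no overlap, and the guides mir-52_5p and mir-252_5p did not pass between stages, with log2 values of 0.23 and 0.31.

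The hairpins of mir-235, the worm relative of miR-92 that keeps blast cells quiet in starved L1, of mir-81 and mir-82 of the mir-58 family, of mir-60 and of mir-76 moved the same way. The asterisk arm of mir-235 held 0.0072, 0.0412 and 0.0464% in L1, against 0.131, 0.278 and 0.392% in embryos. Log2 changes of 3p over 5p were 3.27 ± 0.52 for mir-235, 2.95 ± 0.50 for mir-81, 2.54 ± 0.39 for mir-82, 2.45 ± 0.41 for mir-60 and 2.38 ± 0.49 for mir-76. In all 5 the stages did not overlap. The changes of mir-235 and mir-76 rest on few reads of the asterisk arm. mir-235_5p* had 0.188 to 1.11 CPM in L1 and 1.19 to 6.09 CPM in embryos, and mir-76_5p* was too low for the stage test. mir-71, whose arms both rose, moved towards its 5p arm by -2.27 ± 0.63 (edgeR adjusted p = 0.00464). The 2 arms of mir-63 rose together, with a change of 0.46 ± 0.39 that did not pass (edgeR adjusted p = 0.33).

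In the mir-35 family the asterisk arm held more of the hairpin's reads in L1: the guides fell further than the asterisk arms. The asterisk arm of mir-36 held 1.67, 4.05 and 9.52% in L1, against 0.187, 0.386 and 0.931% in embryos, with a log2 change of -3.39 ± 0.49 (edgeR adjusted p = 1.59e-05). That of mir-42 held 8.14, 12.3 and 32.7% in L1, against 0.872, 2.95 and 4.11% in embryos, and that of mir-40 5.42, 8.63 and 9.89% in L1, against 0.6247, 2.71 and 5.39% in embryos, with log2 changes of -2.76 ± 0.51 and -1.68 ± 0.46. Neither overlapped. For mir-41, whose asterisk arm is the more abundant in both stages, the 3p arm held 1.49, 3.94 and 7.003% in L1, against 8.17, 19.1 and 36.1% in embryos, and changed by -2.50 ± 0.50. mir-37 changed by -2.21 ± 0.38.

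**Figure D5:**
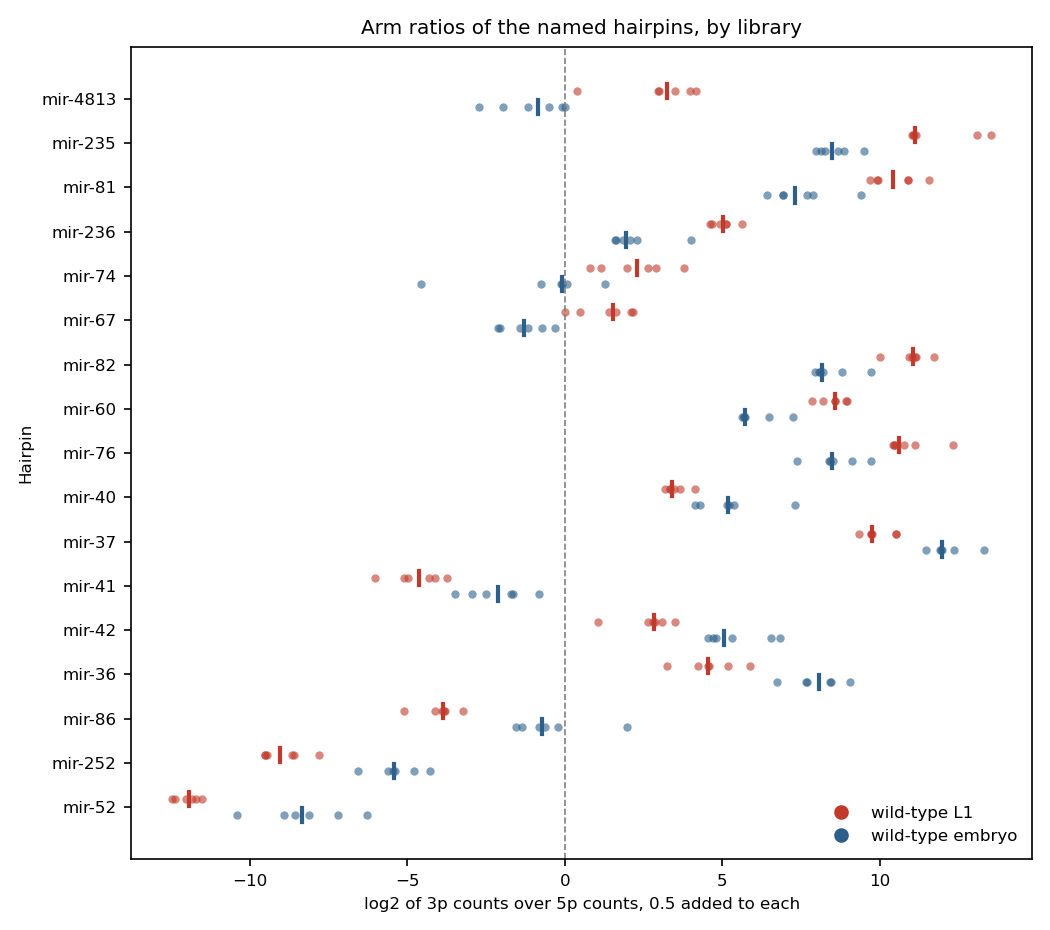
log2 of 3p over 5p counts, with 0.5 added to each (x axis), in each library for the 17 hairpins named for their arm ratio (rows), with 1 point per library (red, 6 wild-type L1; blue, 6 wild-type embryo) and a bar at the median. The dashed line marks equal arms; mir-4813 lies right of it in L1 and left of it or on it in embryos.

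By level, more asterisk arms outside the family fell than rose, which turned round with spike-in scaling. Of 73 tested, 17 rose (23.3%) and 29 fell (39.7%), with a median log2 of -0.56, and of 124 arms without an asterisk 37 rose (29.8%) and 20 fell (16.1%), with a median of 0.27. With library totals 19 asterisk arms rose and 22 fell, with a median of -0.30, and with spike-in scaling 19 rose and 10 fell, with a median of 0.38. Arms without an asterisk had medians of 0.59 and 1.23 with these scalings. Of all counts outside the family, asterisk arms held 0.717 ± 0.107% in L1 and 1.16 ± 0.271% in embryos, lower in 6 of 6 replicate pairs. Over all arms the asterisk share was 0.755 ± 0.121% in L1 and 1.01 ± 0.277% in embryos, which did not pass (exact permutation p = 0.0693, adjusted p = 0.277). Without embryo replicate 4 it did (adjusted p = 0.0173). The asterisk did not always mark the rarer arm: in 8 hairpins, among them mir-34, mir-41 and mir-239a, it was the more abundant arm in both stages, and in mir-67 and mir-74 in embryos alone.

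The changes were set beside libraries that the 12 do not include. In the 5 strains with an edited mir-35 gene, 15 L1 and 15 embryo libraries, the mean log2 difference had the same sign for 54 of the 54 rises, 49 of the 49 falls outside the family and 13 of the 13 family falls other than mir-35_3p and mir-35_5p*, whose wild-type sequence the edited strains do not carry, and for 93% of all 213 arms. In staged wild-type libraries, 2 of starved L1 and 2 of late (pretzel) embryos, the sign was the same for 30 of 54 rises and 41 of 49 falls outside the family, and for 63.4% of all arms. Those libraries have few counts for many arms. An arm with no reads in starved L1 or pretzel embryos counted as not having the same sign. Among such arms were the rise mir-243_5p and the fall mir-1829b_5p. The staged embryos were late, where those of the 12 libraries were of mixed ages. Of the 9 rises with 100 or more counts in each of the 8 staged libraries, 4 had the same sign. The share over all arms at that cut was not taken. There mir-71_5p had 280810 and 249730 CPM in starved L1, against 19462 and 35036 CPM in pretzel embryos. mir-63_3p, a named rise, went the other way, with 892 and 552 CPM in starved L1, against 1209 and 851 CPM in pretzel embryos. Its mean log2 difference was -0.53, and those of mir-50_5p, mir-90_3p, mir-80_3p and mir-228_5p, which also rose in the 12 libraries, were -0.55, -0.30, -0.22 and -0.06. mir-51_5p had 65350 and 102150 CPM in starved L1, against 237250 and 218500 CPM in pretzel embryos, and neither mir-71_5p nor mir-51_5p had stages that overlapped there.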

How the data were processed

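Small RNAs of 12 wild-type libraries, 6 of L1 and 6 of embryos, were analysed out of a table of 58 libraries. The authors deposited 1 table of estimated counts per miRNA arm, with no scaling: 296 lines, of which 276 are arms of 138 hairpins, 10 spike-in RNAs and 10 edited mir-35 sequences. Spike-in lines and edited sequences were left out of totals and tests. DESeq2, HTSeq 0.13.5, SAMtools 1.13, Bowtie2 2.4.4 and cutadapt 3.4 are named in the submitters' processing notes, and per the labels' protocols libraries came from a commercial small-RNA kit with modifications. How strand was handled and which genome build was used are not given in the sources used here. Coordinates are therefore left out. Sequences were not used here. Of the 3312 values, 140 in 70 lines ended in 0.5, and estimated counts were rounded to whole numbers. Reads of mir-44 and mir-45 are shared.

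The stages were compared in the 12 libraries with edgeR 4.0.16 (quasi-likelihood, robust; R 4.3.3), TMM factors and Benjamini-Hochberg adjustment over the 213 arms that filterByExpr kept (counts of at least 10, summed counts of at least 15), with a threshold of 0.05. The biological coefficient of variation was 0.441. Arm ratios were tested in 82 hairpins whose arms both had 10 or more counts in at least 6 libraries, with a term for each library, arm and the interaction of arm and stage. The 4 measures of composition had 2-sided exact permutation tests over 924 regroupings. On simulated counts the stage test recovered 92.6% of changes of 4-fold and 30% of 2-fold over 213 arms, and the arm test 85.4% of 4-fold over 82 hairpins. Plots used matplotlib 3.10.9 and tables pandas 2.3.3, under Python 3.11.15.

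Libraries with the same replicate number deviated together in part. Pearson's r of deviations from the stage means was 0.172 to 0.439 over 6 pairs, against -0.476 to 0.337 for libraries with other numbers. In 4 of the 6 pairs the L1 library correlated best with its own number. The numbers were taken to pair the stages, but the main tests did not use the pairs, and a block for them was an alternative. Other alternatives were library totals, spike-in scaling, RLE factors, TMM factors from arms outside the mir-35 family, DESeq2 1.42.0, limma 3.58.1 for arm ratios, no filter, a minimum of 50 counts, all 42 libraries of mir-35 strains, and each library left out. Leaving out 3 libraries that stood apart was added after seeing the data. Replicates of a stage differed by more than counting error (chi-square per degree of freedom of at least 1192 in L1 and 818 in embryos). The labels do not say whether they were separate cultures, so p-values measure the spread between these samples, which may be technical. There were no molecular identifiers.

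Arms named were the 10 with the largest mean share in each stage. Outside the mir-35 family they were up to 12 rises and 12 falls with the largest change among arms that passed, averaged a log2 CPM of 5 or more and had no overlap of stages (21 rises and 10 falls qualified), up to 8 arm ratios in each direction likewise, hairpins whose major arm differed, and members of lists. Of list members, mir-793, mir-1834, mir-1018, mir-1019 and mir-1020 were not analysed here, and mir-239b, mir-241 and mir-797 were too low to test. Members and lists were chosen with earlier results of these data known. Of 138 hairpins, 136 were matched by name to RefSeq's gene table of assembly WBcel235, used for which genes neighbour each other.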

Additional observations from a re-analysis of the deposited data

Results flagged for a closer look

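Of 112 sets of 6 libraries, 13 held a library farther from the rest than Dixon's 95% limit allows, where chance flags about 1 in 20. Levels are CPM. In L1 replicate 6, mir-1821_3p had 625.8, against 240.6 to 330.7 in the other L1 libraries, and mir-4813_5p had 56.3, against 6.19 to 13.1. In the same library the effective number of arms outside the mir-35 family was 19.36, against 23.3 to 24.4. Its log2 of 3p over 5p was 0.381 for mir-4813, against 2.94 to 4.18, and 1.04 for mir-42, against 2.65 to 3.50. In L1 replicate 2, mir-65_5p had 5854, against 3430 to 4157. In L1 replicate 1 the log2 ratio of mir-76 was 12.3, against 10.4 to 11.1.

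In embryo replicate 3, mir-35_3p had 31790, against 133100 to 204800 in the other embryo libraries. In embryo replicate 5, mir-57_5p had 61710, against 17860 to 25790, mir-49_5p* had 763.2, against 286.3 to 410.8, and the log2 ratio of mir-74 was -4.57, against -0.74 to 1.27. In embryo replicate 4, mir-67_5p* had 32.2, against 104.1 to 162.9, and the log2 ratio of mir-236 was 4.02, against 1.59 to 2.29. The directions of these arms and ratios were unchanged with each library left out in turn.

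Reads of the edited mir-35 sequences, which these animals do not carry, were present in all 12 wild-type libraries, with 476 to 16515 counts per library. The highest was embryo replicate 3, in which mir-35_3p was lowest.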

How the results depend on the processing

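Over all arms, 54 rose and 64 fell, and outside the mir-35 family 54 rose and 49 fell. The falls depended on the scaling. With spike-in scaling 27 arms fell, 12 of them outside the family, and 6 of the 10 named falls did not pass. The median over all arms moved by 0.14 on the log2 scale with RLE factors, 0.33 with library totals and 1.02 with spike-in scaling. Of the spike-in counts, miR166a took 41.7 to 59.9% in L1 and 45.1 to 69.2% in embryos, and a scaling without it was not run. Spike-in scaling is therefore uncertain, and the TMM factors of the main fit moved with stage too. With a minimum of 50 counts, 35 arms rose, all of them outside the family. With 1 library left out, 45 to 59 arms rose and 53 to 68 fell (38 to 53 outside the family), and 21 to 28 hairpins moved towards 3p and 17 to 21 towards 5p. The replicate block gave 63 rises and 72 falls, with 117 of the 118 calls in common, and apart from mir-57_5p and mir-246_3p it changed the call of no named arm. The 12 named rises passed under all scalings. The 17 named arm ratios kept their call under each alternative in which they were tested, which for a minimum of 50 counts was 14 of them.

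The difference in the effective number of arms was -0.0375 with mir-44 and mir-45 joined. With 1 library left out, L1 minus embryo ranged over -0.30 to 0.95 points for the share of the top 10, 0.11 to 1.28 for the effective number of arms, -0.20 to 1.29 for the effective number outside the family and -0.35 to -0.18 points for the asterisk share. Directions that turned are log2 values. With spike-in scaling mir-56_3p was 0.95, mir-82_3p 0.0776, mir-4813_3p 0.17, mir-43_3p 0.19, lsy-6_3p 0.98, let-7_5p 0.94, mir-246_3p 0.34 and mir-73_3p 0.70. With library totals mir-56_3p was 0.31, lsy-6_3p 0.18 and let-7_5p 0.0371. mir-56_3p was also 0.15 with RLE factors, 0.15 with DESeq2, 0.0188 in all 42 libraries and 0.18 without the 3 libraries that stood apart, where mir-42_5p* was -0.41. With a minimum of 50 counts mir-58a_3p was -0.0727, mir-2_3p -0.0088 and mir-52_5p -0.000324. With 1 library left out, mir-56_3p ranged over -0.0902 to 0.17, mir-58a_3p over -0.0456 to 0.38, mir-42_5p* over -0.0558 to 0.66, lsy-6_3p over -0.26 to 0.11 and let-7_5p over -0.52 to 0.28. The cause of these turns was not tested. Changes of 2-fold were recovered in 30% of simulated arms, so smaller changes may be missed, and a count of 0 allows 3 counts, for counting error only.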
